A study of Mus musculus with 4 samples.

Results

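The genes described here are 10 immediate early genes, Fos, Fosb, Jun, Junb, Egr1, Atf3, Ier2, Ier3, Dusp1 and Ccn1, out of 28765 genes measured. They were picked by name, after earlier results of the same values had shown Fos, Fosb and Egr1 among the genes with the largest differences. The ratios of NTD over control below are therefore a description, with no test. All 10 were found through their Ensembl identifiers.

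The study sequenced total RNA of mouse embryos with neural tube defects (NTD), in which the tube that becomes the brain and spinal cord fails to close. There were 4 libraries, NTD brain, control brain, NTD spine and control spine, with 1 library per group, so no difference has a replicate check. All were CD-1 embryos, an outbred strain, taken at embryonic day 9.5. Per the labels, male and female mice ate a low-folate diet for over 8 weeks, and defects were induced with 1.5 mg/kg methotrexate (MTX), an inhibitor of dihydrofolate reductase, injected into the abdomen of the mother at E7.5. The labels name the treatment of the NTD groups as folate deficiency and that of the other groups as control. The same protocol text stands beside the control libraries, so whether control mothers received the diet or the injection is not stated. How many embryos went into a library, and how the tissue was dissected, is not stated either. NTD brain stood apart from control brain in transcripts of heart and of trunk Hox genes, whose values close the results.

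Immediate early genes are switched on within minutes of a stimulus, such as a growth factor, membrane depolarisation or cell stress, without new protein synthesis. Kinase cascades that end on transcription factors already bound at their promoters, such as serum response factor (SRF) and CREB, start them, and their mRNAs decay fast. Fos and Jun proteins pair to form the transcription factor AP-1, and Egr1 is a zinc finger factor started by many of the same signals.

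The window before the start site is shown for 5 of the genes, because these genes are textbook targets of signals that act there. Windows are the 250 bases before the RefSeq start (GRCm38.p6), 5′ to 3′ on the strand of the gene. They lie at chr12:85473640-85473889 (plus strand) for Fos, chr7:19310046-19310295 (minus) for Fosb, chr3:145649986-145650235 (minus) for Ccn1, chr17:26508473-26508722 (minus) for Dusp1 and chr4:95052223-95052472 (minus) for Jun. The Dusp1 window lies inside the gene span given for Dusp1 below (26505590 to 26562128), because that span starts elsewhere than the RefSeq start. Capitals mark TGACG on either strand (read as CGTCA on the other), the core of the cAMP response element that CREB and ATF proteins bind.
Fos: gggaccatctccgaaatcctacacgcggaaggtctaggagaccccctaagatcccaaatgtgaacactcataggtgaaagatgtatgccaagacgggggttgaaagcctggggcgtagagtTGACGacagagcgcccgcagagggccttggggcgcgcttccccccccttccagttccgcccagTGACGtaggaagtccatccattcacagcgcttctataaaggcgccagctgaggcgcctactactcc
Fosb: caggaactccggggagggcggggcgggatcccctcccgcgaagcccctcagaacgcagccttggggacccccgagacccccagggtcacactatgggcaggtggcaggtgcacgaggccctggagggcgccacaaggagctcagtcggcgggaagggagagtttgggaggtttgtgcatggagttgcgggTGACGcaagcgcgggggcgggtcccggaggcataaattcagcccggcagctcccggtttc
Ccn1: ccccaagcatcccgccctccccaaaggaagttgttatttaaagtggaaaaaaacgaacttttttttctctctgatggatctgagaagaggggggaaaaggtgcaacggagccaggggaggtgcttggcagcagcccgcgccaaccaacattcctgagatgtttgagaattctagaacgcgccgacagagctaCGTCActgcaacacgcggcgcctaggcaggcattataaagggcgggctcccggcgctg
Dusp1: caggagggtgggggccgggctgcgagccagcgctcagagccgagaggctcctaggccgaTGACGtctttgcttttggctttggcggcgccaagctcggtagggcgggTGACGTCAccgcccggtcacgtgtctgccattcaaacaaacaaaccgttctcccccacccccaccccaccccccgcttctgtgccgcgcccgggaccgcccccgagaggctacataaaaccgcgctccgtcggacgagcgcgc
Jun: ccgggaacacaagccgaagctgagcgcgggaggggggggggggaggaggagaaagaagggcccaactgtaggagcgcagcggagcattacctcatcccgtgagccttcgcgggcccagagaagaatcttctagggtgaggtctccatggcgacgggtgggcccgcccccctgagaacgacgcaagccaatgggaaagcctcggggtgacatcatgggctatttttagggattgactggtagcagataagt

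TGACG stood in 6 of the 8 genes with a window in the RefSeq table (Fos, Fosb, Junb, Atf3, Dusp1 and Ccn1), and in 17.8% of all 32851 windows of the same length. In Fos it began at -129 and at -66 from the start, in Fosb at -60, and in Ccn1 it lay from -58 to -54 on the other strand. Dusp1 held the full palindrome TGACGTCA from -143 to -136, which contains TGACG on both strands and was found in 1.55% of all windows. In Jun the exact letters TGACG were not present in this window. It does hold the near match TGACATCA, a form that was not searched for. The AP-1 motif TGANTCA (6.75% of windows) and the SRF motif, the CArG box (1.47% of windows), were found in none of the 8 windows. Bases farther from the start were not searched. The absence therefore holds for these windows only, and whether the genes have such sites elsewhere was not tested. GGGCGG, the Sp1 motif, was present in 7 of 8 against 32.7% of windows. GCGNGGGCG, the Egr1 motif, was present in Fosb, where it overlaps a GGGCGG, and in 4.70% of windows. TATAAA was present in Fos and Ccn1, and in 12.4% of windows. All motifs were searched on both strands, and a match says only that the letters are there. Egr1 and Ier2 are not among the windows shown or searched.

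Fos and Fosb, the AP-1 subunits with the largest differences, were far higher in NTD brain and NTD spine than in the controls, and Egr1 stood beside them. Jun, Ccn1, Junb, Dusp1 and Atf3 were higher by smaller amounts, while Ier2 and Ier3 did not differ beyond counting error. Levels are in FPKM, which is fragments scaled by the length of the gene model and by the library total, so they can be set beside each other between genes. The log2 ratio is that of (FPKM + 1), which understates the difference of low genes. A gene was called when this ratio was at least 2-fold, and "rose" is used only of such genes. The fold is that of whole reads per library total, recovered from the FPKM values, and its 95% interval covers counting error only.

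By this rule 3 of the 10 genes rose in NTD brain, Fos, Fosb and Egr1, where 0.804% of the 12940 compared genes did. In NTD spine 4 of 10 rose, the same 3 and Ccn1, where 0.649% of compared genes did. In both tissues together 3 rose, against 0.240% of compared genes. None fell, where 0.781% of genes fell in brain, 0.680% in spine and 0.155% in both. The counting interval of the fold lay above 1 for 8 of 10 genes in each tissue, all but Ier2 and Ier3, where that of 16.1% of genes did in brain, 17.2% in spine and 7.95% in both. It lay below 1 for 0 of 10, where that of 25.7% of genes did in brain and 26.6% in spine. Because the genes were chosen with these ratios known, nothing is read from those shares. Compared genes are those with a mean of at least 1 FPKM over the 4 libraries. All 10 genes passed, but the mean of the 2 controls alone was 0.987 FPKM for Fos, 0.280 FPKM for Fosb and 0.917 FPKM for Egr1, so these 3 passed through the NTD libraries.

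**Figure D1:**
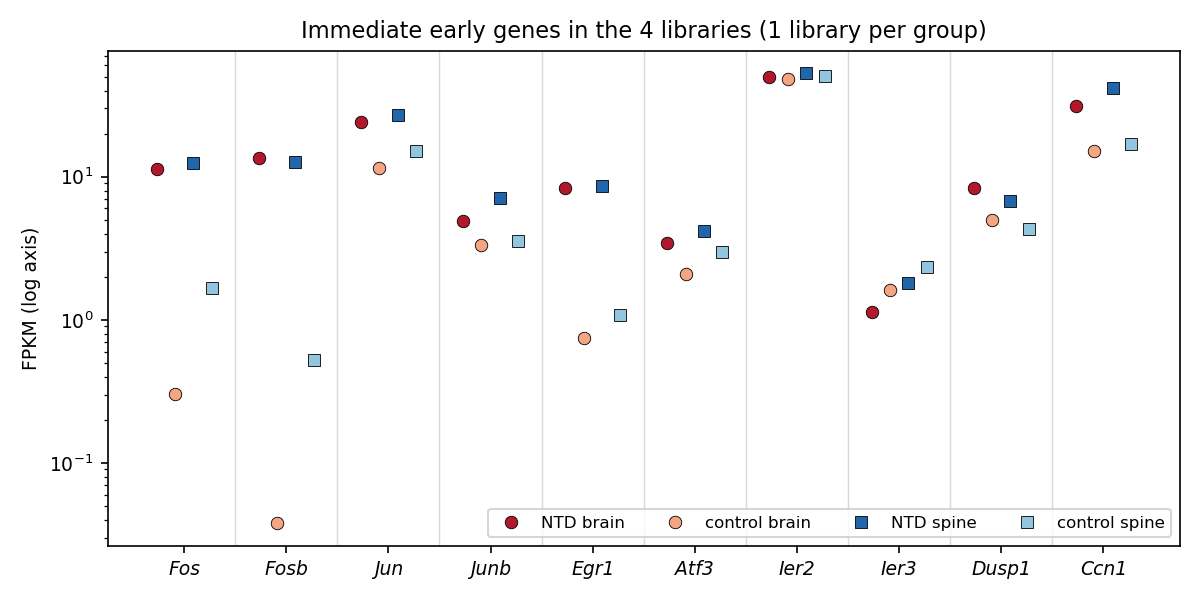
FPKM of each gene (vertical log axis) in the 4 libraries, 1 point per library, with no error bar because each group is 1 library. Fos, Fosb and Egr1 have NTD brain and NTD spine points between 8.33 and 13.4 FPKM and control points at or below 1.67 FPKM, while the 4 points of Ier2 lie between 47.8 and 52.8 FPKM.

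Fos (ENSMUSG00000021250, chromosome 12, 85473890 to 85477273) encodes the c-Fos subunit of AP-1, which binds DNA only with a Jun partner. It had 11.4 FPKM in NTD brain against 0.302 FPKM in control brain, and NTD spine had 12.4 FPKM against 1.67 FPKM in control spine. The NTD libraries were close to each other, and control brain was the lowest. These levels come from 441 reads in NTD brain against 12 in control brain, and from 484 in NTD spine against 64 in control spine. Fos was thus 37.7-fold higher in NTD brain (interval 21.4 to 73.6; log2 ratio 3.25) and 7.41-fold higher in NTD spine (5.70 to 9.78; log2 ratio 2.33). In bulk tissue, more cells with the transcript and more RNA per cell cannot be told apart.

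Fosb (ENSMUSG00000003545, chromosome 7, 19302696 to 19310051), a second Fos protein that also needs a Jun partner, had the widest span. Its level was 13.4 FPKM in NTD brain against 0.0379 FPKM in control brain, and NTD spine had 12.7 FPKM against 0.522 FPKM in control spine. Both NTD libraries lay far above both controls, and control brain was the lowest. Reads numbered 1378 in NTD brain against 4 in control brain, and 1316 in NTD spine against 53 in control spine. The fold in spine was 24.3 (18.5 to 32.7; log2 ratio 3.17). In brain the fold of 354 (138 to 1300.1; log2 ratio 3.79) rests on the 4 control reads, so its size is known only within that interval.

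The balance between the Fos genes differed too. Fosb stood at 1.18 times the FPKM of Fos in NTD brain against 0.126 times in control brain, and at 1.02 times in NTD spine against 0.312 times in control spine. Thus by FPKM Fosb was level with Fos in the NTD libraries and well below it in the controls. In control brain only 4 Fosb reads and 12 Fos reads stand behind this ratio and the share below. The ratio also depends on the gene models, with 6243 exon bases for Fosb and 2352 for Fos. Fosl1 and Fosl2, the other Fos family genes, summed to 0.751 FPKM in NTD brain against 0.846 FPKM in control brain, and to 1.18 FPKM in NTD spine against 1.03 FPKM in control spine. Of the summed FPKM of all 4 Fos family genes, Fos and Fosb made up 97.1% in NTD brain against 28.6% in control brain, and 95.5% in NTD spine against 68.1% in control spine.

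Egr1 (ENSMUSG00000038418), which binds GC-rich sites, had 8.33 FPKM in NTD brain against 0.752 FPKM in control brain, and NTD spine had 8.61 FPKM against 1.08 FPKM in control spine. Its NTD libraries were nearly equal, and both controls were low. With 615 reads in NTD brain against 57 in control brain, it was 11.1-fold higher (8.44 to 14.8; log2 ratio 2.41). With 641 reads in NTD spine against 79 in control spine, it was 7.95-fold higher (6.29 to 10.2; log2 ratio 2.21). Egr1 made up 96.0% of the summed FPKM of Egr1 to Egr4 in NTD brain against 80.3% in control brain, and 98.2% in NTD spine against 95.1% in control spine. Egr2, Egr3 and Egr4 were each at or below 0.193 FPKM in all 4 libraries.

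Among 11199 protein-coding genes compared, Fosb ranked 1, Fos 2 and Egr1 3 by log2 ratio in brain. In spine Fosb ranked 1, Fos 3 and Egr1 4. Among all 12940 compared genes, Fosb ranked 1, Fos 3 and Egr1 10 in brain, and in spine Fosb ranked 1, Fos 7 and Egr1 10. These 3 were known to be among the largest differences when the genes were picked. They also passed the filter through the NTD libraries, so nothing is read from the ranks.

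**Figure D2:**
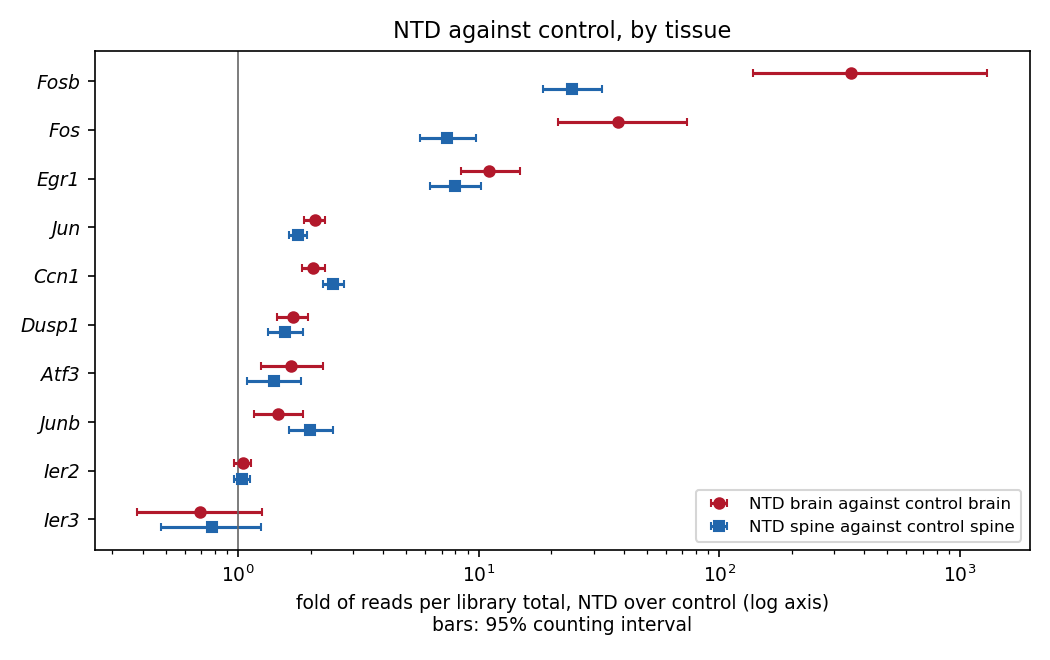
Fold of reads per library total, NTD over control (horizontal log axis), for brain (circles) and spine (squares), with 95% counting intervals as bars. Fosb, Fos and Egr1 lie at 7.41-fold or higher in both tissues, 5 genes lie between 1.40-fold and 2.48-fold, and the intervals of Ier2 and Ier3 hold 1.

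Jun (ENSMUSG00000052684, chromosome 4, 95049034 to 95052222) encodes c-Jun, the AP-1 subunit that pairs with Fos proteins or with itself. It had 24.0 FPKM in NTD brain against 11.6 FPKM in control brain, and NTD spine had 27.0 FPKM against 15.2 FPKM in control spine. Each NTD library was above both controls. The fold was 2.08 in brain (1.89 to 2.29) and 1.77 in spine (1.63 to 1.94). On the scale of FPKM + 1 the log2 ratios were 0.99 in brain and 0.79 in spine, so Jun did not pass the 2-fold rule, in brain by a margin that the choice of scale decides.

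Junb (ENSMUSG00000052837, chromosome 8, 84974484 to 84978718) encodes a Jun protein that activates fewer targets than c-Jun and can oppose it. It had 4.91 FPKM in NTD brain against 3.34 FPKM in control brain, and NTD spine had 7.15 FPKM against 3.58 FPKM in control spine. NTD spine was the highest library and the controls were close to each other. The fold was 1.47 in brain (1.17 to 1.85; log2 ratio 0.44) and 1.996 in spine (1.62 to 2.47; log2 ratio 0.83). From start to end, the Junb gene shares 351 bases with Prdx2 on the opposite strand, at 106 to 120 FPKM. Whether these bases are exons of both genes was not checked. No source used here gives the strand setting, so reads in the shared bases cannot be told apart. Jund, the remaining Jun family gene, was listed at 0.400 FPKM in NTD brain against 0.284 FPKM in control brain, and at 1.05 FPKM in NTD spine against 0.700 FPKM in control spine; its model overlaps an antisense gene, so this level is uncertain.

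The Fos side of AP-1 thus differed more than the Jun side. Fos and Fosb summed to 24.8 FPKM in NTD brain against 0.340 FPKM in control brain, and to 25.1 FPKM in NTD spine against 2.19 FPKM in control spine. Jun and Junb summed to 28.9 FPKM in NTD brain against 14.9 FPKM in control brain, and to 34.1 FPKM in NTD spine against 18.8 FPKM in control spine. Of the FPKM of these 4 genes, Fos and Fosb took 46.1% in NTD brain against 2.23% in control brain, and 42.4% in NTD spine against 10.4% in control spine. These are shares of mRNA, not of protein.

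Atf3 (ENSMUSG00000026628, chromosome 1, 191170296 to 191218039) encodes a stress-induced bZIP factor that can repress its targets. It had 3.47 FPKM in NTD brain against 2.09 FPKM in control brain, and NTD spine had 4.17 FPKM against 2.97 FPKM in control spine. NTD spine was the highest library, control brain the lowest, and NTD brain and control spine lay fairly close together. The fold was 1.66 in brain (1.24 to 2.24; log2 ratio 0.53) and 1.40 in spine (1.09 to 1.82; log2 ratio 0.38), both under the 2-fold rule. It rests on 76 to 149 reads per library, against 130 to 273 for Junb, 233 to 457 for Dusp1, 518 to 1401 for Ccn1 and 624 to 1430 for Jun.

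Ccn1 (ENSMUSG00000028195, chromosome 3, 145646976 to 145649981) encodes a secreted matrix protein that binds integrins. It had 31.1 FPKM in NTD brain against 15.2 FPKM in control brain, and NTD spine had 41.8 FPKM against 16.9 FPKM in control spine. NTD spine was the highest and the controls were close. Ccn1 rose in spine, by 2.48-fold (2.24 to 2.74; log2 ratio 1.26). In brain the fold was 2.05 (1.84 to 2.28), with a log2 ratio of 0.99 just under the rule.

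Dusp1 (ENSMUSG00000024190, chromosome 17, 26505590 to 26562128) encodes a phosphatase that switches MAP kinases off. It had 8.38 FPKM in NTD brain against 4.98 FPKM in control brain, and NTD spine had 6.78 FPKM against 4.32 FPKM in control spine. Both NTD libraries were above both controls, and NTD brain was the highest. The fold was 1.68 in brain (1.45 to 1.96; log2 ratio 0.65) and 1.57 in spine (1.33 to 1.86; log2 ratio 0.55). From start to end, the Dusp1 gene shares 640 bases with Ergic1 on the opposite strand, at 16.5 to 19.4 FPKM. On its own strand, Dusp1 shares 1853 bases with AC122252.1 and 227 bases with AC122252.4, for which no FPKM is given. The limits given for Junb hold here too.

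Ier2 (ENSMUSG00000053560, chromosome 8, 84661331 to 84662852) encodes a nuclear regulator of transcription and was the most abundant of the 10 genes in every library. It had 49.9 FPKM in NTD brain against 47.8 FPKM in control brain, and NTD spine had 52.8 FPKM against 50.9 FPKM in control spine. The 4 libraries were nearly level in the values as deposited. The fold was 1.04 in brain (0.965 to 1.13) and 1.04 in spine (0.960 to 1.12), so a difference of 1.13-fold or less in NTD brain is not told apart from none by the counts. Ier2 had 1253 reads in NTD brain against 1232 in control brain.

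Ier3 (ENSMUSG00000003541, chromosome 17, 35821684 to 35822923), linked to cell survival under stress, was the lowest of the 10 in both NTD libraries. It had 1.13 FPKM in NTD brain against 1.62 FPKM in control brain, and NTD spine had 1.81 FPKM against 2.34 FPKM in control spine. Both NTD libraries were below the control of their tissue, unlike the 8 genes with intervals above 1. The fold of 0.696 in brain (0.380 to 1.25; log2 ratio -0.30) and of 0.775 in spine (0.479 to 1.24; log2 ratio -0.25) rests on 21 to 43 reads per library, and a difference was not detectable at this depth.

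The order of the genes by level differed between NTD and control libraries for all but the top 3. Ier2, Ccn1 and Jun held ranks 1, 2 and 3 by FPKM in all 4 libraries. Fosb stood at rank 4 and Fos at rank 5 in both NTD libraries, while Fosb was at rank 10 in both controls and Fos at rank 9 in control brain and 8 in control spine. Egr1 stood at rank 7 in NTD brain against 8 in control brain, and at rank 6 in NTD spine against 9 in control spine. Dusp1, Junb, Atf3 and Ier3, at ranks 4, 5, 6 and 7 in both controls, stood at ranks 6, 8, 9 and 10 in NTD brain and 8, 7, 9 and 10 in NTD spine. The sum over the 10 genes was 156 FPKM in NTD brain against 87.7 FPKM in control brain, and NTD spine had 175 FPKM against 99.5 FPKM in control spine. Without Ier2 the sum was 106 FPKM in NTD brain against 39.9 FPKM in control brain, and NTD spine had 122 FPKM against 48.6 FPKM in control spine.

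**Figure D3:**
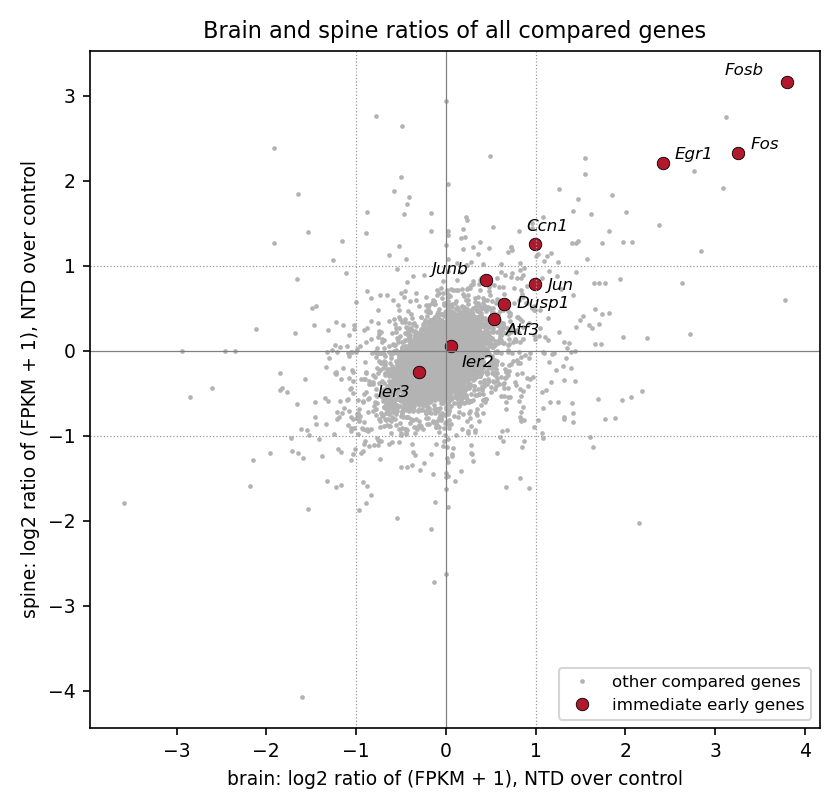
Log2 ratio of (FPKM + 1), NTD over control, in brain (horizontal) and spine (vertical) for the 12940 compared genes, with the 10 immediate early genes in red and dotted lines at 2-fold. Fosb (3.79 in brain, 3.17 in spine), Fos and Egr1 lie far to the upper right, Ccn1, Jun, Junb, Dusp1 and Atf3 nearer the centre, and Ier2 and Ier3 within the bulk of genes.

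Between tissues, Fos and Fosb differed beyond counting error in the controls, and their counting intervals between the NTD libraries hold 1. In control brain Fos was called lower than in control spine (log2 ratio -1.04), 1 of 10 genes where 2.38% of compared genes were; none was higher, where 0.981% were. By reads, control brain had 5.54-fold less Fos than control spine did (2.97 to 11.3) and 13.8-fold less Fosb (5.07 to 52.4). Jun (1.32-fold lower, 1.18 to 1.46), Egr1 (1.44-fold, 1.01 to 2.06) and Atf3 (1.42-fold, 1.05 to 1.94) also stood lower in control brain, which makes 5 of 10 genes with an interval below 1, where 19.2% of compared genes had one. Between NTD brain and NTD spine no gene was called in either direction, where 1.02% of compared genes were higher and 2.13% lower. The fold of NTD brain over NTD spine was 0.919 for Fos (0.806 to 1.05), 1.06 for Fosb (0.978 to 1.14) and 0.967 for Egr1 (0.865 to 1.08), so each of these intervals holds 1. Ccn1 at 0.745 (0.687 to 0.808), Junb at 0.687 (0.567 to 0.831) and Jun at 0.890 (0.824 to 0.960) had intervals below 1, 3 of 10 genes where 22.3% of compared genes had one. Dusp1 at 1.24 (1.08 to 1.42) had one above 1, where 21.2% of compared genes did.

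The NTD fold in brain over that in spine was 14.5 for Fosb (5.33 to 55.4) and 5.09 for Fos (2.67 to 10.5). Those ratios rest on the 4 and 12 reads of control brain, and their size depends on the scale. By reads the log2 ratio in brain lay 3.86 above that in spine for Fosb and 2.35 for Fos. With FPKM + 1 the difference was 0.62 for Fosb and 0.92 for Fos, and with a pseudocount of 5 it was 0.19 and 0.25. For Egr1 the ratio was 1.39 (0.960 to 2.03), for Jun 1.17 (1.03 to 1.34), for Ccn1 0.828 (0.715 to 0.959) and for Junb 0.736 (0.536 to 1.01). The intervals of Junb, Egr1, Atf3, Ier2, Ier3 and Dusp1 hold 1. Whether tissues differ beyond the spread between embryos was not tested, as there is 1 library of each.

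Among the other immediate early genes compared, none passed the 2-fold rule. Of 67 further transcription factors, effectors and ERK feedback genes, 55 were compared, and 0 rose or fell in brain and 0 in spine. The shares over all compared genes were 0.804% higher and 0.781% lower in brain, and 0.649% higher and 0.680% lower in spine. A count of 0 among 55 is near those shares, so it does not set these genes apart from other genes. The counting interval lay above 1 for 1 of 13 transcription factors, 4 of 27 effectors and 3 of 15 feedback genes in brain, and for 4, 6 and 2 of them in spine. It lay below 1 for 1, 8 and 3 of them in brain, and for 0, 6 and 2 in spine. Over all compared genes it lay above 1 for 16.1% in brain and 17.2% in spine. It lay below 1 for 25.7% of all compared genes in brain and 26.6% in spine. The median log2 ratio of the 55 genes was 0.03 in brain and 0.04 in spine, where the median of all compared genes was -0.03 in brain and -0.04 in spine. The values ran from -0.56 (Ccn2, a relative of Ccn1) to 0.71 (Klf4, a zinc finger factor) in brain and from -0.41 (Gadd45g) to 0.65 (Nfkbiz, a regulator of NF-kB targets) in spine; these 4 were named after their values were seen. Klf4 had 2.03 FPKM in NTD brain against 0.853 FPKM in control brain, and NTD spine had 1.86 FPKM against 1.13 FPKM in control spine, near the low end of compared genes. Nr4a1, an orphan nuclear receptor that often answers with Fos, had 3.05 FPKM in NTD brain against 2.81 FPKM in control brain, and NTD spine had 3.38 FPKM against 2.54 FPKM in control spine, and was also named after its values were seen. Among the transcription factors of higher level, Ets2 had 8.99 FPKM in NTD brain against 8.83 FPKM in control brain, and NTD spine had 18.3 FPKM against 18.5 FPKM in control spine. Dusp6, an ERK phosphatase whose level follows ERK activity, had 39.4 FPKM in NTD brain against 31.5 FPKM in control brain, and NTD spine had 42.5 FPKM against 34.1 FPKM in control spine, a fold of 1.25 in each tissue.

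The upstream and downstream genes of the pathway that could be compared stayed under the rule in both tissues, apart from Acta2. Of the MAP kinase cascade, 0 of 22 compared genes passed in either direction, with medians of -0.07 in brain and -0.01 in spine. Of SRF and its cofactors 0 of 6 passed, and Srf itself had 27.9 FPKM in NTD brain against 23.2 FPKM in control brain, and NTD spine had 34.6 FPKM against 30.9 FPKM in control spine. Of the AP-1 and bZIP partners 0 of 14 passed, and of delayed AP-1 and EGR targets 0 of 12. A further 6 partners and 10 delayed targets had a mean under 1 FPKM and were not compared. Among the delayed targets, Ccnd1, the cyclin of the G1 phase, had 54.9 FPKM in NTD brain against 55.6 FPKM in control brain, and NTD spine had 43.1 FPKM against 41.9 FPKM in control spine. Of the actin genes that SRF drives, 1 of 13 rose in brain, Acta2, and 0 in spine. Of all compared genes, 0.804% rose in brain and 0.649% in spine, while 0.781% fell in brain and 0.680% in spine. Counts of 0 in lists of this size are near those shares, so they do not set the lists apart from other genes.

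Heat shock genes were mostly higher by less than 2-fold. Of these genes 2 of 13 rose in brain, Hspb1 and Cryab, and 0 in spine, with medians of 0.28 in each tissue. Of all compared genes, 0.804% rose in brain and 0.649% in spine. The counting interval lay above 1 for 10 of 13 in brain and 8 of 13 in spine, and below 1 for 0 in brain and 3 in spine. Of all compared genes, it lay above 1 for 16.1% in brain and 17.2% in spine. The share below 1 was 25.7% in brain and 26.6% in spine. Hspa8, a chaperone present in all cells, had 568 FPKM in NTD brain against 460 FPKM in control brain, and NTD spine had 511 FPKM against 419 FPKM in control spine. For hypoxia and glycolysis 0 of 14 passed in either direction, for p53 targets 0 of 15 and for targets of ATF4 and the integrated stress response 0 of 15. The shares of all compared genes that fell were 0.781% in brain and 0.680% in spine, so these counts of 0 are near the background.

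**Figure D4:**
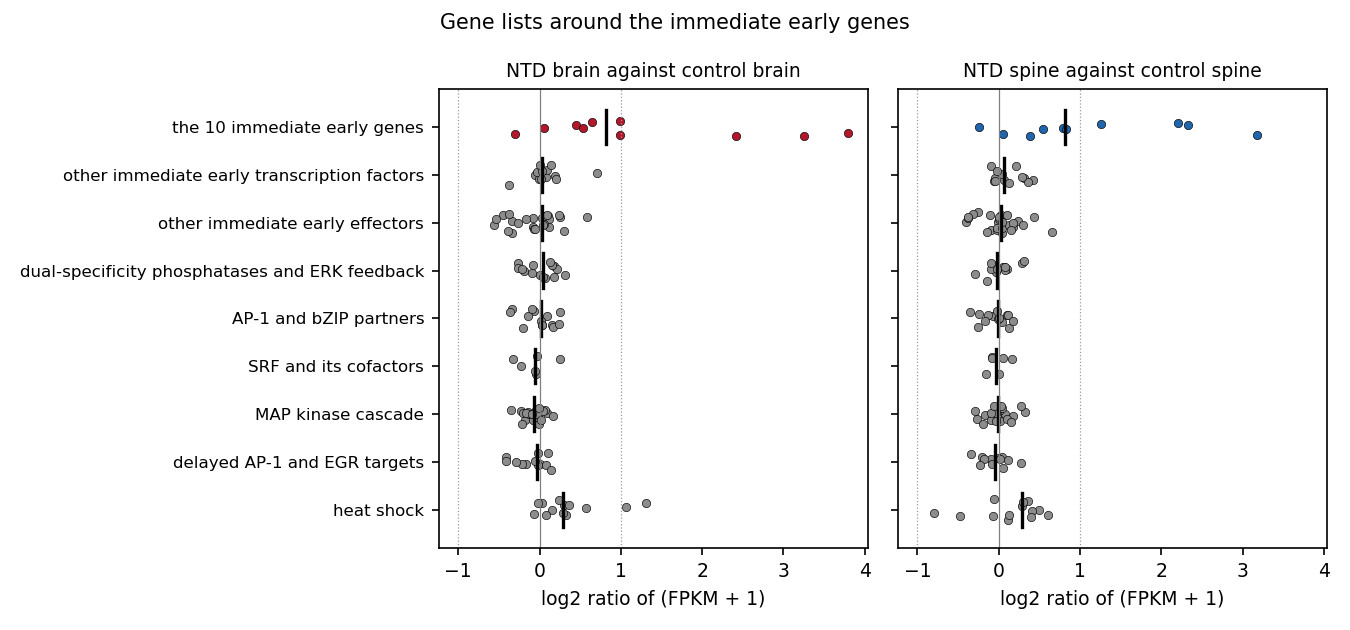
Log2 ratio of (FPKM + 1), NTD over control, of every compared gene in the 10 immediate early genes (coloured) and 8 related lists (grey), for brain (left) and spine (right), with a black bar at each median and dotted lines at 2-fold. The medians of the 10 genes are 0.82 in brain and 0.81 in spine, and those of the other lists lie between -0.07 and 0.28 in brain and between -0.05 and 0.28 in spine.

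By likeness of pattern, the protein-coding gene outside the 10 closest to Fos, Fosb and Egr1 was Rpl35a, a ribosomal protein gene. Likeness was the Euclidean distance between log2(FPKM + 1) values over the 4 libraries after centring each gene, where 0 is the same pattern. Rpl35a lay at 1.71 from Fos, 2.20 from Fosb and 1.04 from Egr1, with 64.7 FPKM in NTD brain against 23.0 FPKM in control brain, and NTD spine had 49.5 FPKM against 19.9 FPKM in control spine. Its reads may include those of its many processed pseudogenes and are uncertain. Gm10964 followed at 1.86 from Fos, 2.56 from Fosb and 1.48 from Egr1, and Rnf225 at 2.10 from Fos, 2.72 from Fosb and 1.53 from Egr1. Gm7879 was among the closest 4 for Fos (2.06) and Fosb (2.76), and Efcab7 for Egr1 (1.59). The distance was 0.736 between Fos and Egr1, 0.786 between Fos and Fosb and 1.19 between Fosb and Egr1, so Egr1 lay nearer to Rpl35a than to Fosb. Of the nearest compared genes on the chromosome, Tmed10 and Jdp2 beside Fos, Rtn2 and Ercc1 beside Fosb, and Reep2 and Etf1 beside Egr1 had log2 ratios from -0.35 to 0.13.

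Transcripts of tissue marker genes also differed between the libraries. In bulk RNA, another mix of tissues and another expression of the markers cannot be told apart. Library totals were 16272101 to 16911677 reads. As the background for the counts below, 0.804% of compared genes rose and 0.781% fell in brain. In spine 0.649% rose and 0.680% fell. Negative log2 ratios of any size were found for 7292 of the 12940 compared genes in brain and for 7509 in spine. Otx2, a forebrain and midbrain factor, had 28.7 FPKM in NTD brain against 27.1 FPKM in control brain, and NTD spine had 0.457 FPKM against 2.21 FPKM in control spine. The 14 trunk Hox genes summed to 13.5 FPKM in NTD brain against 0.239 FPKM in control brain, where 8 of them were at 0, and to 218 FPKM in NTD spine against 212 FPKM in control spine. In brain 4 of the 14 rose, among them Hoxb9, with 4.18 FPKM in NTD brain against 0.0919 FPKM in control brain. The 16 heart genes summed to 243 FPKM in NTD brain against 59.6 FPKM in control brain, where 1 was at 0, and to 590 FPKM in NTD spine against 879 FPKM in control spine. In brain 11 of the 16 rose, among them Actc1, cardiac actin, with 90.0 FPKM in NTD brain against 20.8 FPKM in control brain. The heart sum was thus highest in control spine and lowest in control brain. The 20 early neuron genes summed to 176 FPKM in NTD brain against 259 FPKM in control brain, and to 101 FPKM in NTD spine against 172 FPKM in control spine. All 20 had negative log2 ratios in brain and 18 did in spine, with medians of -0.58 in brain and -0.60 in spine; 0 of 20 passed 2-fold in brain and 5 in spine. The 14 erythroid genes summed to 4852 FPKM in NTD brain against 4514 FPKM in control brain, and to 3675 FPKM in NTD spine against 7037 FPKM in control spine; all 14 had negative log2 ratios in spine, with a median of -0.76, and 1 passed 2-fold there. The 11 endoderm genes summed to 6.52 FPKM in NTD brain, with 3 at 0, against 8.95 FPKM in control brain, with 4 at 0, and to 53.8 FPKM in NTD spine against 154 FPKM in control spine; 5 of 7 compared fell in spine. The 12 macrophage and leukocyte genes summed to 11.0 FPKM in NTD brain against 12.1 FPKM in control brain, and to 8.60 FPKM in NTD spine against 8.95 FPKM in control spine. Of the remaining tissue lists, forebrain and midbrain genes had median log2 ratios of -0.10 in brain and -0.33 in spine, neural progenitors -0.23 in brain and -0.13 in spine, endothelium -0.16 in brain and 0.04 in spine, somites and muscle 0.18 in brain and 0.11 in spine, and surface ectoderm 0.15 in brain and -0.02 in spine. The part of tissue make-up in the ratios of the 10 genes was not tested.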

How the data were processed

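RNA of CD-1 mouse embryos was sequenced in 4 libraries, grouped by title and treatment label. The deposited table gives FPKM per Ensembl gene, made by the authors. Per the submitters' processing notes, HISAT2 2.0.1 and mm10 were used. For the counter, annotation, strand setting and filters: not given in the sources used here. Identifiers were matched to GENCODE M21 on GRCm38 (28698 of 28765, 67 unmatched). FPKM times union exon length steps in whole reads, so reads were recovered for 98.6% of genes within 0.01 reads, which also gave the library totals (16272101 to 16911677 reads). For Ier2 the reads came out whole only with 1524 bases, found by a search around the annotated 1522. Processing was in Python 3.11.15 with numpy 2.4.6, pandas 2.3.3, SciPy 1.17.1 and matplotlib 3.10.9.

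The log2 ratio of (FPKM + 1) was computed for 12940 genes whose mean over the 4 libraries reached 1 FPKM, 11199 of them protein coding, and called at 2-fold. Folds of recovered reads carry 95% exact conditional binomial (Clopper-Pearson) intervals, given for the 12725 compared genes with whole reads. The fold and interval code was tested on simulated data. With 1 library per group, no p-value is given. The 10 genes and the 23 gene lists were chosen with earlier results of these data known. From the pathway and stress lists, genes past 2-fold are named and otherwise up to 4 with the highest mean FPKM. From the tissue lists at most the 2 genes with the highest mean FPKM are named, whether or not others passed 2-fold; genes named after their values were seen are marked. Other pseudocounts, filters, thresholds and scalings were tried.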

Additional observations from a re-analysis of the deposited data

Results flagged for a closer look

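In the pathway and stress lists (tissue lists left out), 3 genes passed 2-fold in at least 1 tissue. All 3 had a counting interval above 1 in brain and below 1 in spine, and the share of all compared genes with this pattern was not counted. This difference between tissues was not tested, as each group is 1 library. Acta2, smooth muscle actin, had 36.5 FPKM in NTD brain against 14.1 FPKM in control brain, and NTD spine had 87.4 FPKM against 111 FPKM in control spine. Its log2 ratio in brain lay 1.66 above that in spine. Hspb1, a small heat shock protein, had 7.89 FPKM in NTD brain against 2.58 FPKM in control brain, and NTD spine had 13.8 FPKM against 24.9 FPKM in control spine, which puts brain 2.11 above spine. Cryab, another small heat shock protein, had 6.12 FPKM in NTD brain against 2.40 FPKM in control brain, and NTD spine had 11.1 FPKM against 15.9 FPKM in control spine, with brain 1.55 above spine. The summed heart genes lay the same way round, at 243 FPKM in NTD brain against 59.6 FPKM in control brain, whereas NTD spine had 590 FPKM against 879 FPKM in control spine; their part in these 3 genes was not tested.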

How the results depend on the processing

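No paired analysis was possible because within a tissue the NTD and control groups share only 1 replicate number. A fit over the 4 libraries with tissue as a block was not run, since the genes were chosen on these ratios. Fos, Fosb and Egr1 were called higher in both NTD comparisons under every pseudocount, threshold and scaling tried, except that Egr1 leaves the compared genes at a mean of at least 5 FPKM. The brain count of 3 became 5, adding Jun and Ccn1, with a pseudocount of 0.1, with median ratio scaling and by recovered reads, and 6 at 1.5-fold, adding Dusp1. The count higher in both tissues became 5 at 1.5-fold. The count of genes lower in control brain against control spine, 1 as given, was 2 with a pseudocount of 0.1 and by recovered reads, and 0 with a pseudocount of 5 or at 4-fold. The Fosb log2 ratio of NTD brain over NTD spine became -0.03 when libraries were set to the same FPKM sum. Across genes, log2 ratios fell with GC content (Spearman rho -0.34 in brain, -0.36 in spine), and all 10 genes lie above the median GC of 49.9%. Adjusted for GC content and length, the log2 ratio was 1.06 for Jun and 1.01 for Ccn1 in brain, and 1.03 for Junb in spine. For Ier2 it was 0.19 in brain and 0.28 in spine, against 0.06 in brain and 0.05 in spine as given, and for Ccn1 in spine 1.41 against 1.26. That adjustment and the count by recovered reads were chosen after seeing the data. Few control reads limit the folds of Fosb and Fos in brain.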
